A study of Drosophila melanogaster with 9 samples.

Results

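Brain tumours of the fly Drosophila melanogaster that had been passed through adult hosts 4 times (T3) were compared with tumours of the first transplantation (T0). The comparison used 6 of the 9 libraries of the series, 3 per group: T3 replicates 1, 2 and 4, and T0 replicates 2, 3 and 4. The members are all genes of the count table, 16727 symbols, of which 9082 had enough counts to be tested. The other 3 libraries are sorted cells of the primary larval tumour, and entered the fit and a few sentences on levels.

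Every tumour, in both groups, carried the same transgenes. Clones made with an actin flip-out driver and marked with GFP overexpressed UAS-HA-dpn together with UAS-HA-mγ, a combination the labels call DM. Larval brains with such clones were put into adult w1118 flies. The T3 libraries came from GFP masses taken 8 to 10 days after transplantation round 4, and the T0 libraries from masses taken 8 to 10 days after round 1, with 25 hosts pooled for each replicate in both groups. Both kinds of mass were collected whole, without cell sorting, so host cells could be included. The labels do not say which T0 mass gave rise to which T3 mass, and some T0 masses were the source of the later rounds. In whole masses, fewer cells of a type and less RNA per cell cannot be told apart.

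Neuroblasts are the stem cells of the fly brain. They divide asymmetrically, renewing themselves while a smaller daughter goes on to make neurons or glia. Deadpan, encoded by dpn, and E(spl)mγ are basic helix-loop-helix repressors of the Hes family, downstream of Notch, that hold a neuroblast in its stem cell state. Too much of them lets daughters revert to neuroblasts and form a tumour. Larval neuroblasts also pass through a temporal programme, from an early state marked by Chinmo, Imp and Lin-28 to a late one marked by Syncrip and Eip93F, after which they stop dividing. Transplantation into an adult abdomen frees a tumour from that limit, and repeated rounds ask whether the transplanted tissue keeps its character or drifts.

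Depth was 7932772 to 12830347 counts in T3 libraries and 9482014 to 12988767 in T0 libraries. The neuroblast markers dpn, ase and mira were present in all 6 libraries, and the male reproductive genes had no gene with enough counts to be tested. On the first principal component, with 37.9% of the variance, T3 replicate 4 lay with T0 replicates 3 and 4, and the other 2 T3 libraries lay with T0 replicate 2. The second component, with 32.5%, had the 3 T3 libraries on one side of 0, at -15.6, -8.88 and -7.09, and the 3 T0 libraries on the other, at 26.9, 2.93 and 1.75. T0 replicate 2 stood farthest out, and this library recurs below with high host-tissue and heat shock transcripts. The median absolute difference between T3 replicate 4 and T0 replicate 3 was 0.11 on the log2 scale, and that to T0 replicate 4 was 0.12. Pairs within T3 differed by 0.18 to 0.20, and pairs within T0 by 0.14 to 0.26. One late-passage library was thus closer to 2 first-round libraries than to either of its own replicates.

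No gene passed the test. With edgeR's quasi-likelihood test and Benjamini-Hochberg adjustment, 0 of 9082 genes (0%) had an adjusted p under 0.05, and the smallest adjusted p was 0.330. At an unadjusted p under 0.05 there were 746 genes, 8.21% of those tested, 269 higher (2.96%) and 477 lower (5.25%) in T3. The 3 libraries of each group did not overlap for 666 genes that were higher in T3 (7.33%) and 708 that were lower (7.8%). The median log2 fold change over all genes tested was -0.01. The count of 0 depended on the test, on the filter, on a block for the replicate number and on 1 library. Without a filter on low counts the quasi-likelihood test called 28 of 14539 genes higher and 68 lower. With the replicate block it called 0 of 9082 higher and 5 lower. DESeq2 called 2 genes higher and 11 lower (0.143% in all), edgeR's likelihood ratio test called 5 higher and 17 lower (0.242%), and limma-voom called 0 (0%). Without T3 replicate 2 the quasi-likelihood test called 0 higher and 5 lower (0.0531%).

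Most of the genes at high level had a narrow interval around no difference. For 6551 of 9029 genes with an interval (72.6%), the whole 95% interval of the T3 to T0 ratio lay within 2-fold. Among the 6940 genes averaging at least 5 CPM, counts scaled to 1000000 per library, the share was 91.2%, with a median half-width of 0.37 on the log2 scale. Among the 2089 genes below that level it was 10.5%, with a half-width of 1.17, so a 2-fold difference in a low gene was mostly not detectable at this depth. The estimate itself was within 0.5 of 0 on the log2 scale for 93.7% of the genes at or above 5 CPM. It exceeded 1 in either direction for 73 of them.

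**Figure D1:**
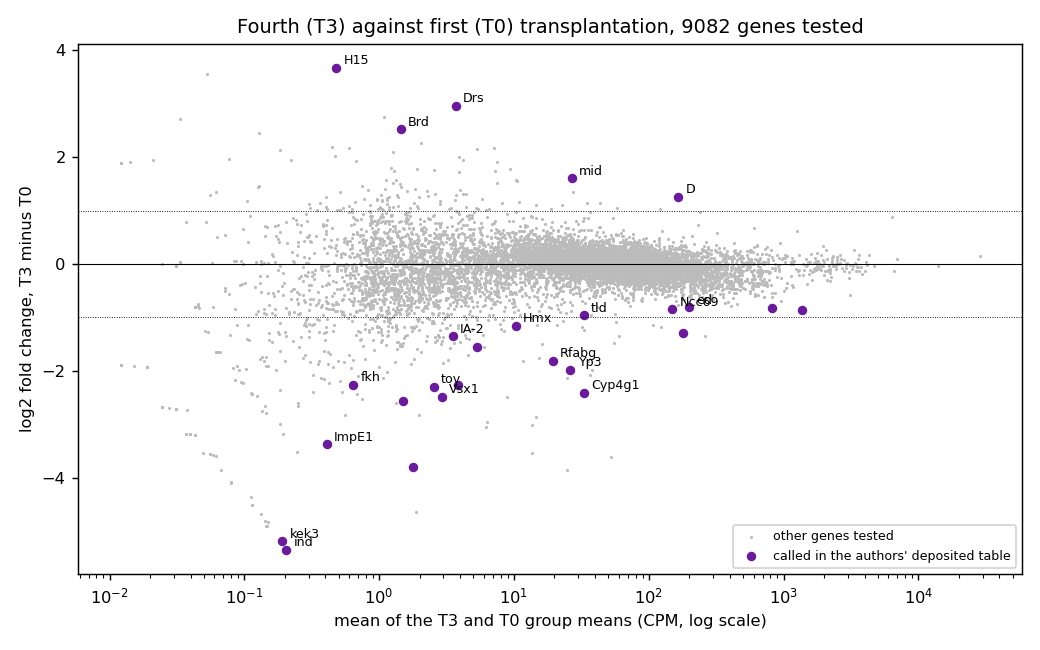
Log2 fold change of T3 over T0 (vertical axis) against the mean of the 2 group means in CPM (horizontal axis, log scale) for each gene tested, with genes called in the authors' deposited table in purple. Genes at high levels lie close to 0 and the marked genes lie mostly below it. For genes at 0 in a whole group the plotted value depends on the fit's prior count.

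The authors' deposited table of this comparison called 26 of 8958 genes (0.29%) at an adjusted p under 0.05, 5 higher and 21 lower in T3. In the fit used here all 26 had the same sign and an unadjusted p under 0.05, and 22 had groups that did not overlap, but their adjusted p by the quasi-likelihood test ran from 0.330 to 0.591. These 26 genes, chosen by a test on the same counts, are described below with the other named genes and support no direction of their own.

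Several transcription factor genes of regional identity are described first. toy encodes a Pax6 protein of the eye and brain and lies on chromosome 4 (dm6, 989725 to 1007922). It had 1.39, 0.881 and 0.257 CPM in T3 replicates 1, 2 and 4, against 2.38, 5.86 and 4.49 CPM in T0 replicates 2, 3 and 4. All T3 libraries were below all T0 libraries, at a log2 fold change of -2.30 (95% interval -3.34 to -1.29, adjusted p = 0.455, quasi-likelihood test). Primary tumour cells averaged 93.5 CPM, so toy was low in both transplanted groups.

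Vsx1, a homeobox gene of the optic lobe on X (5594255 to 5612865), had 0.880, 0.377 and 1.28 CPM in T3 libraries and 6.01, 3.39 and 5.66 CPM in T0 libraries. Its log2 fold change was -2.49 (-3.47 to -1.54), and the adjusted p of 0.330 was the smallest of the comparison, shared with Cyp4g1 and fkh. fkh, which encodes a forkhead protein of the gut and salivary gland, had 2, 2 and 3 counts in T3 libraries and 10, 13 and 12 counts in T0 libraries. These are few counts, yet the groups did not overlap.

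Hmx, another homeobox gene, had 8.21, 3.65 and 7.01 CPM in T3 libraries, against 15.6, 12.9 and 14.5 CPM in T0 libraries, a log2 fold change of -1.16 (-1.76 to -0.57). fd102C, a forkhead gene on chromosome 4, had 3.15, 1.26 and 10.8 CPM in T3 libraries and 12.5, 12.6 and 29.3 CPM in T0 libraries. Each T3 library was lower than each T0 library for both genes, although T3 replicate 4 came close to T0 for fd102C. Of 14 listed eye and optic lobe regulators, all tested, 0 were higher and 3 lower at an unadjusted p under 0.05. Over all genes these shares were 2.96% and 5.25%. The list's median log2 fold change was -0.34. The third gene lower at that p was so, which partners eya in eye formation, at -0.47 (-0.89 to -0.05). The Hox genes, which set position along the body axis, were close to absent, with 6 of 8 tested at sums of 0.0855 to 0.440 CPM in T3 libraries and 0.227 to 1.40 CPM in T0 libraries.

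A pair of neighbouring genes and a Sox gene went the other way. mid (chromosome arm 2L, 5461639 to 5467610) and H15 (2L, 5404280 to 5416593) encode related T-box factors of the embryonic nervous system and body wall. mid had 45.2, 56.4 and 20.1 CPM in T3 libraries and 16.5, 17.1 and 6.55 CPM in T0 libraries. The groups did not overlap, at a log2 fold change of 1.6 (0.76 to 2.45), with primary cells at 17.9 CPM. H15 had 27 counts over the T3 libraries and 2 over the T0 libraries, a ratio of 13.5 with a counting interval of 3.40 to 117.

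D, or Dichaete, is a SoxB gene of neural progenitors. It had 271, 300 and 130 CPM in T3 libraries and 69.9, 143 and 81.1 CPM in T0 libraries, so T3 replicate 4 lay inside the T0 range. Its log2 fold change was 1.25 (0.59 to 1.92), and 1.04 without T3 replicate 2. Brd, a small inhibitor of Notch ligand trafficking, had 3.67, 2.52 and 1.28 CPM in T3 libraries, against 0.113, 0.275 and 0.809 CPM in T0 libraries. Awh, a LIM homeobox gene, had 19.3, 26 and 11.7 CPM in T3 libraries and 10.8, 11.5 and 8.97 CPM in T0 libraries, and its groups did not overlap.

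Other genes of the authors' list were of mixed kind. IA-2, a dense-core vesicle protein of secretory neurons, had 1.32, 2.39 and 2.31 CPM in T3 libraries and 6.69, 3.11 and 5.37 CPM in T0 libraries. tld, a secreted protease that frees BMP ligands, had 19.3, 24.2 and 23.8 CPM in T3 libraries and 52.9, 31.7 and 46.3 CPM in T0 libraries. CG17341 and CG16879 are one gene, CG46301, in the current annotation, and differed by -0.86 and -0.82 on the log2 scale, at 837 to 1189 CPM in T3 libraries and 1476 to 2217 CPM in T0 libraries for CG17341. Another 5 of the 21 genes lower in the authors' table lie outside the naming rule and were chosen after their values were seen. They are ed and Ncc69, at -0.81 and -0.85 with groups that did not overlap, and kek3, ind and ImpE1, which were nearly absent. kek3 had 0 counts over the T3 libraries and 13 over the T0 libraries, at least 4.33-fold lower, and ind had 0 and 15, at least 4.99-fold lower, with a group at 0 counted as 3. ImpE1 had 2 counts over the T3 libraries and 24 over the T0 libraries.

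The drivers of the tumour did not pass the test and their intervals lay within 2-fold. dpn had 245, 223 and 262 CPM in T3 libraries, against 176, 322 and 262 CPM in T0 libraries, a log2 fold change of -0.06 (-0.48 to 0.37). E(spl)mgamma-HLH had 170, 193 and 172 CPM in T3 libraries and 135, 244 and 164 CPM in T0 libraries, at -0.02 (-0.44 to 0.39). For both genes the 3 T3 libraries lay inside the T0 range. Reads of the transgenes and of the endogenous genes are counted together. w, whose mini-white form marks many transgenes, had 351, 391 and 448 CPM in T3 libraries and 539, 482 and 412 CPM in T0 libraries, with T3 replicate 4 above the lowest T0 library.

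Asymmetric division genes had narrow intervals, and neuroblast identity genes less uniformly so. mira, the adaptor that carries fate determinants into the daughter cell, had 2437, 2428 and 2388 CPM in T3 libraries and 2357, 2793 and 2323 CPM in T0 libraries, at -0.04 (-0.37 to 0.28). ase, a proneural gene of type I neuroblasts, differed by 0.19 (-0.27 to 0.65), and pros, which ends self-renewal, by -0.15 (-0.65 to 0.35). Of 15 neuroblast identity genes, all tested, 10 had intervals within 2-fold. At an unadjusted p under 0.05, 3 were higher and 2 lower (2.96% and 5.25% over all genes). D was one of those higher, and sna and esg, Snail-family genes of neuroblasts, were the others at 0.48 and 0.46, with groups that did not overlap. All 18 asymmetric division genes had intervals within 2-fold. Their median log2 fold change was -0.19, and brat, a brake on self-renewal, stood at -0.41 (-0.88 to 0.06).

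Of 9 early temporal genes, which mark the growth-permissive state of the neuroblast, 6 were tested, and Kr among them had 2 counts over the T3 libraries and 8 over the T0 libraries. chinmo and Imp were at high levels in both groups. chinmo had 555, 637 and 575 CPM in T3 libraries and 496, 481 and 689 CPM in T0 libraries, at 0.08 (-0.28 to 0.45). Imp, an RNA-binding protein of the early state, had 618, 1226 and 531 CPM in T3 libraries and 459, 573 and 933 CPM in T0 libraries. Its spread within each group was wide, and without T3 replicate 2 its log2 fold change was -0.19 in place of 0.27. lin-28, a regulator of let-7 microRNAs, had 133, 77.5 and 63.0 CPM in T3 libraries and 98.6, 53.1 and 35.2 CPM in T0 libraries, at 0.56 (-0.21 to 1.32). CR43283, the long noncoding RNA cherub of neuroblast tumours, had 29079, 40565 and 20134 CPM in T3 libraries and 23117, 21073 and 36794 CPM in T0 libraries.

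A pair of early temporal genes was lower in T3 at an unadjusted p under 0.05 (5.25% lower over all genes). svp, a nuclear receptor that closes the early window, had 279, 302 and 430 CPM in T3 libraries and 638, 529 and 537 CPM in T0 libraries, at -0.75 (-1.21 to -0.29), with no overlap. cas, a zinc-finger gene that acts before svp, had 341, 239 and 294 CPM in T3 libraries and 680, 315 and 442 CPM in T0 libraries. It differed by -0.72 on the log2 scale, and by -0.37 once T0 replicate 2 was left out. Of the late genes, Syp had 609, 1177 and 1202 CPM in T3 libraries, against 659, 1400 and 1867 CPM in T0 libraries, at -0.39 (-1.26 to 0.47), and Eip93F differed by -0.48 (-1.34 to 0.38). Among 11 tested late temporal and ecdysone response genes, 10 estimates were below 0. Only 1 gene, ftz-f1, was lower at an unadjusted p under 0.05 (5.25% lower over all genes).

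Notch pathway components lay on both sides of 0, with 14 of 21 estimates below it, and none passed the test. Of 22 genes, 21 were tested, 0 were higher and 7 lower at an unadjusted p under 0.05 (5.25% lower over all genes), and 10 had T3 libraries wholly below T0 libraries (7.8% over all genes). The list's median was -0.32 on the log2 scale, or -0.23 once T0 replicate 2 was left out. The receptor N had 234, 300 and 448 CPM in T3 libraries and 536, 526 and 474 CPM in T0 libraries, at -0.65 (-1.14 to -0.15). The ligand Dl had 45.4, 53.3 and 62.1 CPM in T3 libraries and 114, 64.0 and 85.3 CPM in T0 libraries, at -0.71 (-1.20 to -0.23). T3 replicate 4 was the closest to T0 for both. H, a corepressor of the pathway, and numb, an inhibitor of the receptor, were lower at an unadjusted p under 0.05 as well, at -0.45 and -0.41. The other side held 7 of the 21 estimates. They were pen-2, a gamma-secretase subunit, at 0.077, and 6 genes of the E(spl) complex, the direct targets of the pathway, at 0.12 to 1.01, named here after their values were seen. T3 libraries lay wholly above T0 libraries for 0 genes of the list (7.33% over all genes). E(spl)mgamma-HLH, of the same complex but outside this list, stood at -0.02.

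Neuronal transcripts had mostly small estimates below 0. Of 25 neuronal differentiation genes, all tested, 0 were higher and 3 lower at an unadjusted p under 0.05, beside 2.96% and 5.25% over all genes. T3 libraries lay wholly below T0 libraries for 2 of the 25 and wholly above for 1, beside 7.8% and 7.33% over all genes, while 23 estimates were below 0 and the median was -0.35. The 3 under that p were VGlut, the vesicular glutamate transporter, Syt1, the calcium sensor of synaptic vesicles, and elav, an RNA-binding protein of all neurons. elav had 127, 90.0 and 136 CPM in T3 libraries and 179, 132 and 191 CPM in T0 libraries, and VGlut had 18, 11.4 and 20.7 CPM in T3 libraries and 35.0, 22.5 and 37.7 CPM in T0 libraries. Primary cells averaged 649 CPM for elav and 374 CPM for VGlut.

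Glial genes did not share a direction. repo, the homeobox gene that defines most glia, had 6.45, 9.06 and 2.57 CPM in T3 libraries, against 1.70, 1.56 and 2.13 CPM in T0 libraries, with no overlap and a log2 fold change of 1.72 (0.66 to 2.79). drpr, an engulfment receptor of glia that other cells also make, was lower, at -0.39 (-0.74 to -0.04). Of 12 glial genes, 11 were tested, with 2 higher and 1 lower at an unadjusted p under 0.05 (2.96% and 5.25% over all genes). Their summed level was 646 to 901 CPM in T3 libraries and 871 to 1129 CPM in T0 libraries.

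**Figure D2:**
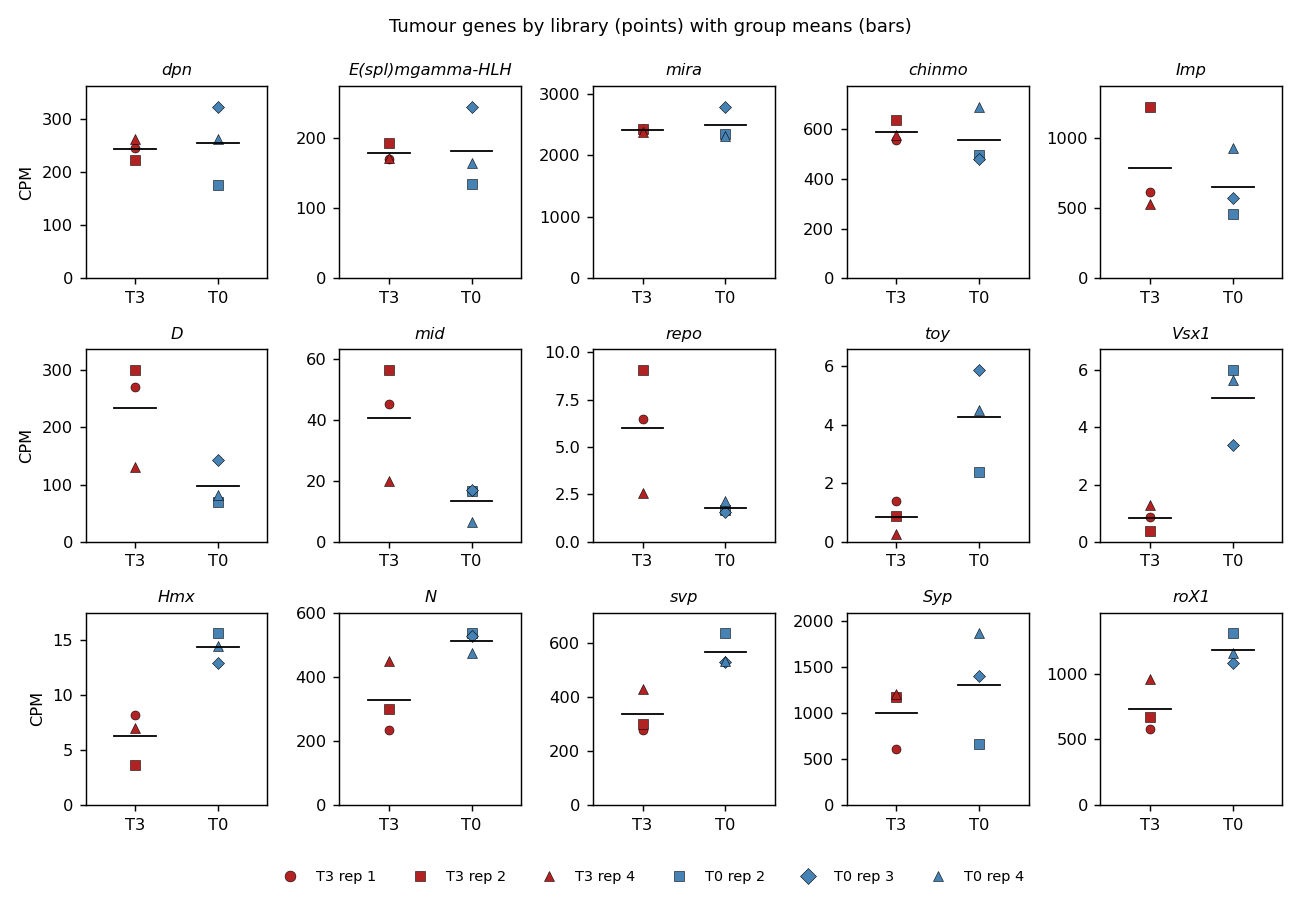
Level in CPM (vertical axis, each panel from 0) of 15 tumour genes in the 3 T3 libraries (red, left) and 3 T0 libraries (blue, right), with group means as bars. The genes of the top row and Syp overlap between groups. toy, Vsx1, Hmx, N, svp and roX1 lie lower in every T3 library, mid and repo lie higher in every T3 library, and D overlaps at T3 replicate 4.

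Genes of proliferation, energy metabolism and DNA repair had narrow intervals. Of 31 cell cycle genes, 30 had intervals within 2-fold, 0 had an unadjusted p under 0.05 and the median log2 fold change was -0.03. All 28 oxidative phosphorylation genes tested had intervals within 2-fold, at a median of -0.0045. All 17 DNA damage response genes did too, at a median of 0.0087. Among these, 4 were higher at an unadjusted p under 0.05 (2.96% over all genes). They were Irbp and Ku80 of the Ku end-joining complex, the tumour suppressor p53, and Corp, an inhibitor of p53, at 0.36 to 0.47.

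Estimates for genes of protein synthesis in mitochondria and of ribosome assembly were small and mostly above 0. Of 72 mitochondrial ribosomal protein genes tested of 73, 66 estimates were above 0 and 13 had T3 libraries wholly above T0 libraries (7.33% over all genes). Only 2 were higher at an unadjusted p under 0.05 (2.96% over all genes), a share near the background. The median was 0.19, and 0.095 without T3 replicate 2, whose summed level of 3280 CPM was the highest of the 6 libraries. The other T3 libraries summed to 2769 and 2727 CPM, and the T0 libraries to 2537, 2770 and 2515 CPM. Among 16 genes of growth and ribosome biogenesis 15 estimates were above 0, at a median of 0.16, with mbm, a nucleolar protein of neuroblasts, at 0.35 (0.06 to 0.64). The 83 tested genes of the cytoplasmic ribosome had a median of -0.02.

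The 14 glycolysis genes had a median of -0.01, but one enzyme varied widely between libraries. ImpL3, now named Ldh, makes lactate from pyruvate. It had 109, 36.4 and 10.9 CPM in T3 libraries and 14.6, 8.06 and 24.9 CPM in T0 libraries, so that T3 replicate 4 lay among the T0 libraries. ImpL2, a secreted antagonist of insulin signalling linked to tumour wasting in fly hosts, had 109, 50.8 and 20.2 CPM in T3 libraries and 35.6, 26.4 and 19.7 CPM in T0 libraries. Both were highest in T3 replicate 1. Thor, a translation brake under TOR and FOXO control, had 197, 138 and 122 CPM in T3 libraries and 78.3, 100 and 121 CPM in T0 libraries, at 0.61 (0.16 to 1.05).

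Genes of invasion and signalling were mixed. Mmp2, a matrix metalloprotease, had 100, 86.3 and 126 CPM in T3 libraries and 137, 171 and 170 CPM in T0 libraries, at -0.61 (-0.96 to -0.26), with no overlap. Mmp1, the other fly metalloprotease, differed by 0.46 (-0.26 to 1.19). puc, a feedback phosphatase of JNK signalling, was higher in each T3 library, at 0.41 (0.07 to 0.74). Of 6 tested JAK/STAT genes and 14 tested receptor tyrosine kinase genes, 0 had an unadjusted p under 0.05. The cytokine upd3 had 0 or 1 count in each transplanted library and was not tested.

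Transcripts of host tissues varied between libraries of both groups. Cyp4g1 on X (467057 to 469335), which makes cuticular hydrocarbons in oenocytes, had 4.03, 19.6 and 8.64 CPM in T3 libraries and 70.3, 57.8 and 39.6 CPM in T0 libraries. The groups did not overlap, at -2.41 (-3.30 to -1.53), with an adjusted p of 0.330. Primary cells averaged 1.84 CPM. Cyp4g1 was called in the quasi-likelihood fit without T3 replicate 2, at -3.14, and by DESeq2.

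The fat body makes lipoproteins and yolk. Rfabg, now named apolpp, encodes the main lipid carrier of the blood and lies on chromosome 4 (1060969 to 1077273). It had 5.50, 14 and 6.50 CPM in T3 libraries and 48.3, 16.9 and 25.0 CPM in T0 libraries. It differed by -1.82 on the log2 scale (-2.74 to -0.89), or by -1.30 once T0 replicate 2 was left out. The yolk protein gene Yp3 had 2.13, 20.4 and 9.92 CPM in T3 libraries and 51.8, 39.4 and 33.8 CPM in T0 libraries, and Yp1 had 1.61, 37.4 and 8.21 CPM in T3 libraries and 102, 50.9 and 27.3 CPM in T0 libraries. T3 replicate 1 had almost no yolk transcripts, and T3 replicate 2 had the most of the T3 libraries. Of 12 fat body genes, 10 were tested. Of these, 1 was higher and 5 lower at an unadjusted p under 0.05 (2.96% and 5.25% over all genes). The higher one was bmm, the main triglyceride lipase, which many cells make.

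A few genes split the T3 libraries themselves. CG16826 had 1, 204 and 1 counts in T3 libraries and 1064, 1338 and 601 counts in T0 libraries. CG1678 (X, 21402339 to 21402772) had 0, 84 and 1 counts in T3 libraries and 652, 481 and 256 counts in T0 libraries, and its close neighbour lcs had 0, 57 and 0 counts in T3 libraries and 373, 284 and 89 counts in T0 libraries. Ag5r, named for a wasp venom antigen, had 0.220, 4.03 and 0.0855 CPM in T3 libraries and 14.6, 11.2 and 7.13 CPM in T0 libraries. In each case T3 replicates 1 and 4 were at or near 0 and T3 replicate 2 held a fraction of the T0 level. These genes averaged 0 to 0.660 CPM in sorted primary cells. CG16826, CG1678, Ag5r and Cyp4g1 were among the 5 genes called lower without T3 replicate 2.

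Several blood cell and matrix genes were highest in T0 replicate 2. Of 11 hemocyte genes, 8 were tested and all 8 estimates were below 0. Of these, 2 were lower at an unadjusted p under 0.05 (5.25% over all genes). Hml, hemolectin, had 23.0, 18 and 12.1 CPM in T3 libraries and 44.4, 30.9 and 12.1 CPM in T0 libraries. NimC1, a phagocytosis receptor, had 8.21, 6.5 and 3.93 CPM in T3 libraries and 26.4, 12.8 and 2.72 CPM in T0 libraries. Without T0 replicate 2 the list's median was -0.38 in place of -0.75, while Pxn, a peroxidase of blood cells and matrix, stood at -1.16 in place of -1.46.

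All 10 basement membrane genes were tested and all estimates were below 0, with 6 at an unadjusted p under 0.05 (5.25% lower over all genes). Cg25C, a collagen IV chain now named Col4a1, had 36.7, 35.0 and 29.4 CPM in T3 libraries and 170, 62.1 and 27.9 CPM in T0 libraries. wb, a laminin alpha chain, had its highest level elsewhere, with 18.7, 4.78 and 23.4 CPM in T3 libraries and 46.8, 21.7 and 99 CPM in T0 libraries. The median of the list was -1.16, and -0.33 without T0 replicate 2, where Cg25C stood at -0.41 in place of -1.36 and wb at -1.93 in place of -1.82. Summed levels were 339, 270 and 243 CPM in T3 libraries and 859, 391.9 and 343 CPM in T0 libraries.

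The germline transcripts yl and dhd were highest in T0 replicate 2. yl, the yolk receptor of the oocyte, had 0, 4.28 and 0.342 CPM in T3 libraries and 27.7, 3.39 and 1.91 CPM in T0 libraries. dhd, a thioredoxin of the egg, had 0.147, 22.8 and 0.599 CPM in T3 libraries and 30.7, 1.56 and 1.84 CPM in T0 libraries. Replicate 2 of both groups thus held dhd, which was named for its wide spread between libraries and is not in the ovary list. Of 16 ovary genes 8 were tested, 0 higher and 1 lower, yl, at an unadjusted p under 0.05 (2.96% and 5.25% over all genes). Muscle genes summed to 5.66 to 7.61 CPM in T3 libraries and 4.67 to 11.8 CPM in T0 libraries, and the one tested gut gene, the digestive protease Jon65Aiii, reached 8.27 CPM in T0 replicate 2. The part of host tissue in the differences between groups was not tested.

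Antimicrobial peptide genes, the inducible output of the Toll and Imd immune pathways, were the list with the largest positive median, 1.41, which was 2.17 without T0 replicate 2 and 0.83 without T3 replicate 2. Of 19 genes 14 were tested, and 13 estimates were above 0. At an unadjusted p under 0.05, 4 were higher and 0 lower (2.96% and 5.25% over all genes). Only 1 had T3 libraries wholly above T0 libraries and 0 wholly below (7.33% and 7.8% over all genes). Drs, an antifungal peptide of the Toll pathway, had 8.80, 9.69 and 1.11 CPM in T3 libraries and 1.70, 0.366 and 0.515 CPM in T0 libraries. Dpt, a Diptericin of the Imd pathway, had 12, 33.8 and 1.62 CPM in T3 libraries and 10.9, 4.76 and 0.662 CPM in T0 libraries. The summed level was 94.9, 141 and 24.3 CPM in T3 libraries and 73.2, 28.0 and 12.1 CPM in T0 libraries, so the lowest T3 library lay among the T0 libraries. Some Att and Cec genes come in near-identical copies whose reads may be split between them. Immune signalling genes were mixed. Of 12 tested, 8 estimates were above 0 and 4 below, with 2 higher and 1 lower at an unadjusted p under 0.05. Rel, the Imd transcription factor, had 133, 112 and 105 CPM in T3 libraries and 95.4, 80.6 and 97.4 CPM in T0 libraries, with no overlap. Tl, the Toll receptor, stood at -1.01 on the log2 scale, and at -0.50 without T0 replicate 2.

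Heat shock genes marked 1 library. All 13 estimates were below 0, at a median of -0.51, but the median was 0.42 without T0 replicate 2. Hsp68, a stress-induced chaperone, had 163, 152 and 128 CPM in T3 libraries and 917, 139 and 68.6 CPM in T0 libraries.

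**Figure D3:**
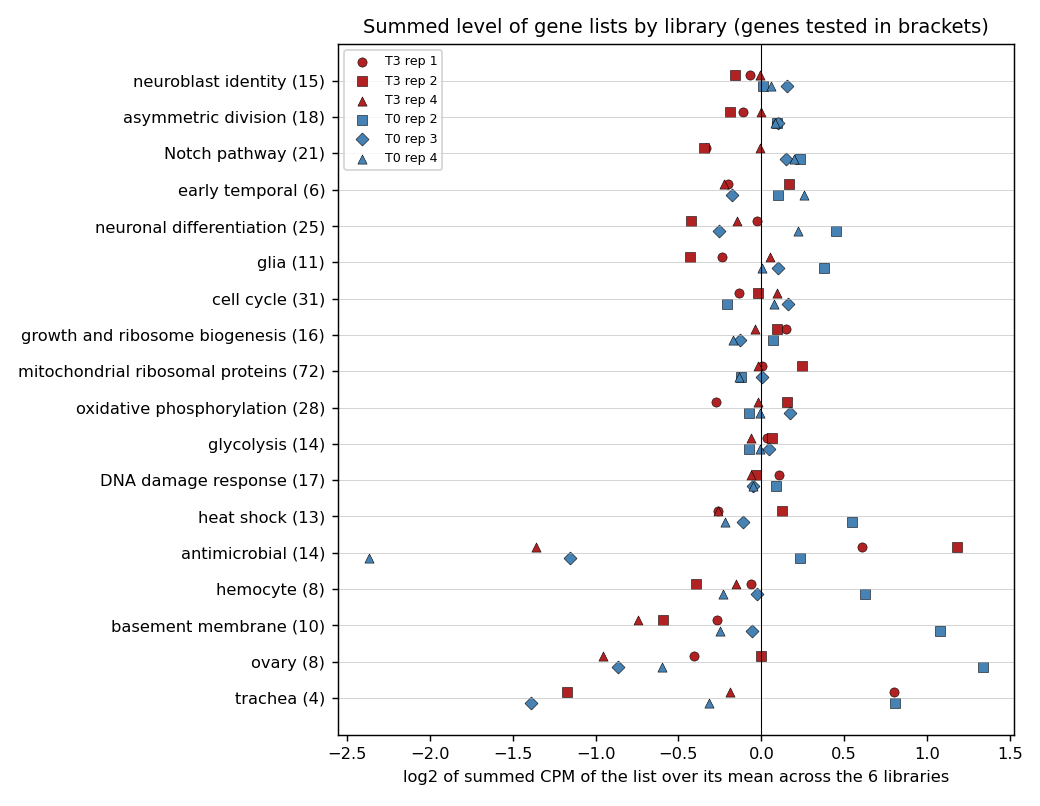
Summed CPM of the tested genes of 18 lists in each library, as log2 of the ratio to the mean of the 6 libraries (horizontal axis), with T3 in red above T0 in blue for each list. Neuroblast identity, asymmetric division, cell cycle, ribosome biogenesis, glycolysis and DNA damage lists lie near 0. Neuronal and glial lists spread more, and antimicrobial, basement membrane, ovary, hemocyte and tracheal genes spread widely. T0 replicate 2 is at the high end of the heat shock, hemocyte, basement membrane and ovary lists.

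**Figure D4:**
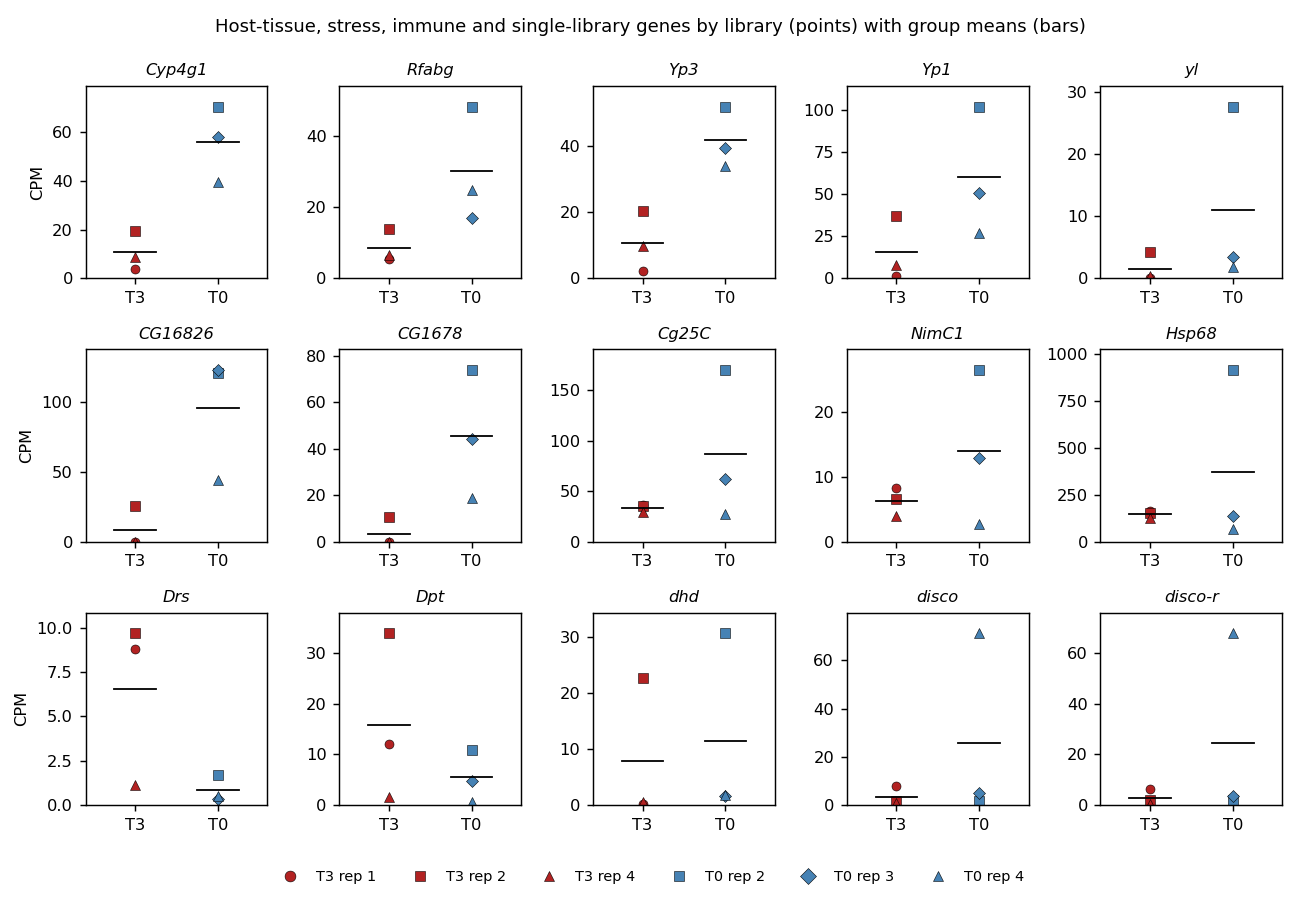
Level in CPM (vertical axis, each panel from 0) of 15 host-tissue, stress, immune and single-library genes in the 3 T3 libraries (red, left) and 3 T0 libraries (blue, right), with group means as bars. Cyp4g1, Rfabg, Yp3, CG16826 and CG1678 lie lower in every T3 library, whereas Cg25C, NimC1, yl and Hsp68 are highest in T0 replicate 2, dhd is high in replicate 2 of both groups, and disco and disco-r are high in T0 replicate 4.

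Serially transplanted fly brain tumours are known for gains and losses of chromosomes, so the level of each chromosome arm was compared. DNA copy number was not measured. For each library the median over an arm's tested genes of log2 CPM was taken relative to the mean of the 6 libraries. Arms 2L, 2R, 3L and 3R stayed within 0.068 across the 6 libraries. The X, with 1556 genes, stood at -0.045, -0.035 and 0.0065 in T3 replicates 1, 2 and 4, against 0.053, 0.026 and 0.035 in T0 replicates 2, 3 and 4. The difference of -0.063 separated the groups, and was -0.041 with upper quartile factors and -0.040 without the filter on low counts. Relative to the mean of all libraries, primary included, the X stood at -0.023, -0.025 and -0.015 in the primary libraries. On that scale T3 libraries stood at -0.042, -0.031 and 0.017, and T0 libraries at 0.038, 0.047 and 0.024. The primary level thus lay inside the T3 range and below every T0 library. Its exact two-sided permutation p of 0.1 is the smallest that 3 against 3 libraries allow, and the value adjusted over 6 arms was 0.6. The lower mean was not confined to one stretch. Of 24 windows of 50 genes along the X, 21 had a lower mean level in T3, against 31 of 110 windows on chromosomes 2 and 3. T3 libraries lay wholly below T0 libraries in only 7 of the 24 X windows and in 1 of the 110, and wholly above in 0 and 14. All windows come from the same 6 libraries, so they are not replicates of the shift. On the X 10.7% of genes had T3 libraries wholly below T0 libraries and 4.76% wholly above. On chromosomes 2 and 3 the shares were 7.19% and 8.01%.

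The dosage compensation genes, through which male flies raise the output of their X, were read alongside. roX1, a noncoding RNA that guides the compensation complex to the X and normally accumulates in males, had 577, 668 and 957 CPM in T3 libraries and 1308, 1086 and 1160 CPM in T0 libraries. All T3 libraries were lower, at -0.69 (-1.10 to -0.28). roX2, its partner, had 1 to 7 counts in each transplanted library and was not tested. Sxl, the female switch gene, differed by -0.15 (-0.52 to 0.23). The sex of the larvae that gave the tumours is not given in the labels, and its part in the X level was not tested.

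Chromosome 4, the smallest autosome, varied most between libraries. Its 87 tested genes stood at 0.0016, -0.29 and -0.047 in T3 libraries and at 0.32, -0.16 and 0.20 in T0 libraries. The range of 0.60 over 6 libraries compares with 0.033 to 0.098 for the other arms, whose medians rest on 1556 to 2151 genes each. A median over fewer genes varies more by itself, so these ranges are not like for like. Among the 3 primary libraries the range of chromosome 4 was 0.20. T3 replicate 2 was the lowest library for 44 of the 87 genes (50.6%), against 20.7% of genes on chromosomes 2 and 3. T0 replicate 2 was the highest library for 44 of the 87 (50.6%), against 25.3% on chromosomes 2 and 3. The median difference of T0 replicate 2 minus T3 replicate 2 was 0.64 over the chromosome's genes. The group difference of -0.23 had an exact two-sided permutation p of 0.3 and the groups overlapped. It was -0.13 without T3 replicate 2 and -0.37 without T0 replicate 3. The genes toy, Rfabg, fd102C and onecut lie on this chromosome, with onecut at a log2 fold change of -0.49. They were named for large differences, a small p or the authors' call. The part of the chromosome's level in their values was not tested.

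**Figure D5:**
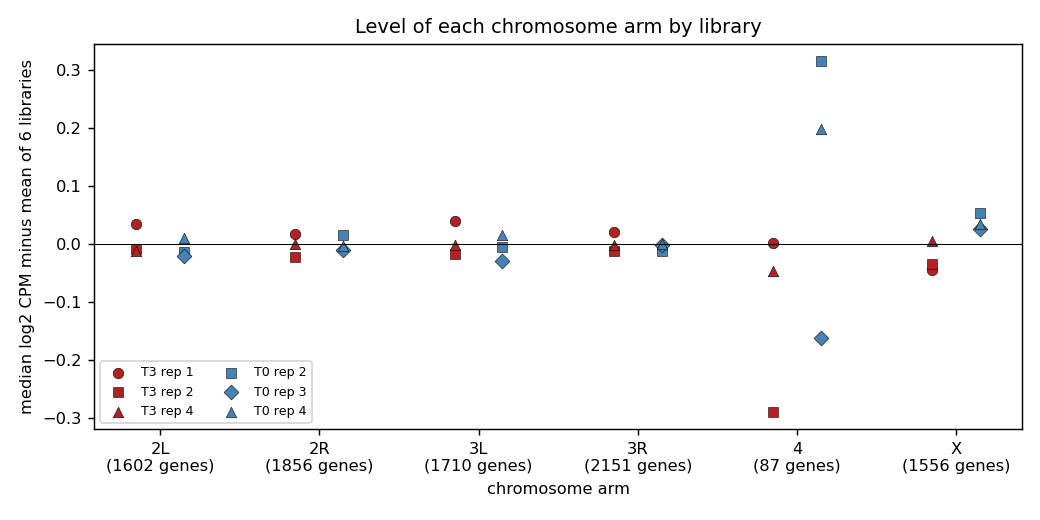
Median over tested genes of log2 CPM minus the mean of the 6 libraries (vertical axis) for each chromosome arm (horizontal axis, number of genes in brackets), with T3 libraries in red left of T0 libraries in blue. The X lies lower in all T3 libraries than in all T0 libraries by less than 0.1, and chromosome 4 spreads over 0.60 with overlapping groups.

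The spread between replicates was not wider within T3 than within T0 as sequenced, but the T0 spread includes the outlying T0 replicate 2. The median SD of log2 CPM over genes was 0.188 within T3 and 0.208 within T0. An SD over 1 was reached by 137 genes within T3 and 239 within T0. The SD was larger in T3 for 44.8% of the genes. By median absolute log2 difference, T0 replicate 2 differed from T0 replicates 3 and 4 by 0.255 and 0.236. T0 replicates 3 and 4 differed from each other by 0.143, less than any pair within T3 (0.184 to 0.201). The SD without T0 replicate 2 was not computed, so the comparison of spreads rests on that library.

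Genes with the widest spread marked single libraries. disco (X, 16210598 to 16216750) and disco-r (X, 16118067 to 16148977) are neighbouring zinc-finger genes of the visual system and appendages. disco had 7.99, 1.64 and 0.684 CPM in T3 libraries and 1.59, 4.86 and 71.3 CPM in T0 libraries, and disco-r had 6.31, 2.01 and 0.428 CPM in T3 libraries and 1.93, 3.66 and 67.7 CPM in T0 libraries. Both were high in T0 replicate 4 only, and moved together in the other libraries. Primary cells averaged 31.9 CPM for disco and 44.6 CPM for disco-r. Without T0 replicate 4 the log2 fold changes were 0.13 and 0.10, in place of -2.86 and -3.02. CR41602 and CR40741, pseudogenes of the ribosomal RNA genes whose reads cannot be parted from true ribosomal RNA, also varied, at 37.8 to 273 CPM in T3 libraries and 15.6 to 342 CPM in T0 libraries for CR41602.

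CR34335, a noncoding RNA on X at a high level, had 8243, 9695 and 6848 CPM in T3 libraries and 4532, 4549 and 4459 CPM in T0 libraries, with no overlap. Its log2 fold change was 0.87 (0.23 to 1.51, adjusted p = 0.591, quasi-likelihood test). Among the other genes with at least 5 CPM and large positive differences without overlap was yuri, a cytoskeletal protein of gravity sensing and spermatids, with 34.3, 29.8 and 26.3 CPM in T3 libraries and 19.8, 17.9 and 14.6 CPM in T0 libraries. CG6272, now named Irbp18, encodes a bZIP partner of the stress factor Xrp1, and had 106, 61.4 and 44.1 CPM in T3 libraries and 36.9, 38.8 and 41 CPM in T0 libraries.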

How the data were processed

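Polyadenylated RNA of 9 libraries (3 each of T3, T0 and primary cells) was sequenced as single reads of 75 nt after 13 PCR cycles, per the labels. HISAT2 2.1.0, HTSeq, bedtools 2.25.0, edgeR and the build dm6 appear in the submitters' processing notes. The annotation release and strand setting were not given in the sources used here, so overlapping and antisense genes cannot be parted. Raw read counts were deposited by the authors for each gene symbol. The deposited tables also give a log2 fold change and p-values from the authors, used only where named. Another 9 per-sample value columns were not used.

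The counts were filtered by filterByExpr (minimum count 10), scaled by TMM and fitted once over the 9 libraries (edgeR 4.0.16, R 4.3.3). T3 minus T0 was tested by quasi-likelihood, two-sided, with a Benjamini-Hochberg adjusted p under 0.05 as the threshold. Intervals are 95% intervals of that fit. CPM are counts scaled to 1000000 of the TMM-corrected library size, and arm levels use log2 of CPM plus 0.5. Positions are from the Ensembl release 115 annotation of dm6, matched for 8965 tested genes. The procedure was tested on simulated data. Alternatives used DESeq2 1.42.0, limma 3.58.1, other scaling and filters, and leaving out libraries.

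Replicates differed by 25.0 to 80.8 in chi-square over degrees of freedom, more than sampling noise. Each library pools animals, so p-values measure the spread between pools. Bounds from few counts cover counting error only. The 39 gene lists, with 681 entries, and the members were chosen with earlier results of these data known. Genes named are the largest differences without overlap at 5 CPM or more (12 per direction), up to 4 per list by smallest p, a fixed set of tumour genes, the 12 with the widest spread, and up to 15 per direction called by the authors.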

Additional observations from a re-analysis of the deposited data

How the results depend on the processing

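The counts of called genes moved with the test and the filter. Without a filter on low counts 28 of 14539 genes were called higher and 68 lower in T3. Of 9082 genes, DESeq2 called 2 and 11, and the likelihood ratio test, an alternative chosen after seeing the data, 5 and 17. Leaving out single libraries gave 0 higher and 0 to 5 lower, the 5 being without T3 replicate 2. Leaving out T3 replicate 2 and T0 replicate 2 together, also chosen after seeing the data, gave 5 lower. The cause was not tested. Other scaling factors, limma-voom, the fit of 6 libraries and a test against 1.5-fold called 0 in both directions.

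With the replicate block, 5 genes were called lower and 0 higher. T3 and T0 share the numbers 2 and 4 only, and the labels do not say that a number marks a shared source. The deviations of same-numbered libraries correlated at 0.13 and 0.32 across genes, and those of differently numbered libraries at -0.42 to 0.31. The 0.32, for replicate 4 of both groups, was the highest value. With so few same-numbered pairs, these values cannot tell whether a number marks a shared source.

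Some signs turned, mostly for values near 0 or resting on 1 library. Under the replicate block, E(spl)mgamma-HLH stood at 0.29, CG4169 at 0.025 and ase at -0.10. serp stood at -0.35 under that block in place of 0.84. With limma-voom Hsp70Bc stood at 0.21 and NimC4 at 0.65. Leaving out single libraries gave log2 fold changes of -0.26 to 0.16 for dpn, -0.19 to 0.26 for E(spl)mgamma-HLH, -0.087 to 0.35 for ase and -0.19 to 0.62 for Imp. The ranges were -2.26 to 0.23 for Kr, -1.37 to 0.34 for mamo, -4.57 to 0.13 for disco and -4.47 to 0.10 for disco-r, each turning without T0 replicate 4. For pb the range was -2.34 to 0, with the 0 reached without T0 replicate 4. Turning without T0 replicate 2 were dhd (-4.91 to 2.15), NimC4 (-1.45 to 1.74), Hsp70Bc (-2.07 to 0.98), Hsp68 (-1.84 to 0.51), Hsp70Bb (-0.73 to 0.12), bam (-0.75 to 0.31), Gasp (-1.02 to 0.12) and RpL17 (-0.56 to 0.064). Uro ranged from -1.40 to 1.41. Arm 2R stood at 0.020 with upper quartile factors. Arms 2L, 3L and 3R stood at -0.020, -0.015 and -0.019 without the filter, and 2L and 3R at -0.022 and -0.012 with means in place of medians.

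Depth limits low genes, and 3 libraries per group limit the permutation tests.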
